A study of Mus musculus with 72 samples.

Results

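Dbp, Tef, Hlf and Nfil3 encode 4 transcription factors that carry the output of the circadian clock in liver. They were followed as the probe sets annotated with 1 of these symbols alone, and where a gene had several, the one with the highest mean was used. Dbp, Hlf and Nfil3 each had 1 such probe set and Tef had 2, so that 4 of the 22180 genes with a single-symbol probe set are described. All 4 were among the 13308 genes tested, which are those above the lowest 40% by mean level. The levels came from 72 arrays, 1 liver RNA per array, in 2 cohorts. The groups were livers labelled SIRT6 KO and WT in a cohort whose strain label reads 129 mixed, and livers labelled SIRT1 KO and WT in a C57BL/6 cohort. Both knockouts are liver-specific per the protocol in the labels, and the sources used here name neither the promoter that drives the recombinase nor the animals' age. Mice of all groups lived under 12 h of light and 12 h of dark, and livers were taken at 6 times named by zeitgeber time (ZT), the hours since the lights came on (0, 4, 8, 12, 16 and 20), with 3 samples for each of the 24 groups. The labels number replicates without naming animals, so every p-value rests on the spread of these samples alone, which may in part be technical. A count of livers below is a count of these samples, which may not all be separate animals.

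DBP (D-site albumin promoter binding protein), TEF (thyrotroph embryonic factor) and HLF (hepatic leukemia factor) form the PAR bZIP family, whose proline- and acid-rich domain lies beside a basic leucine zipper, and they activate genes through a DNA element called the D-box. NFIL3, also named E4BP4, is a bZIP protein without that domain, and it represses genes through the same element. In mouse liver CLOCK and BMAL1 drive Dbp through E-boxes, REV-ERB proteins repress Nfil3 through ROR elements, and the PAR bZIP factors are known for the daily control of drug and haem metabolism.

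The promoters of the members that moved together or in opposition were searched for these 3 elements, and those with a match are printed because they hold the letters by which clock factors are known to reach such genes. All 4 genes had an entry among the RefSeq promoters of build GRCm38.p6, which run from 250 bases before to 50 bases after a gene's start, and Tef had 2. Motifs were the E-box CACGTG, the D-box TTANGTAA and the ROR element ANTAGGTCA, each on both strands and with no overlap between the matches found. They occur in 7.15%, 2.32% and 0.661% of the 32851 promoters searched. The letters of the ROR element were settled after the Nfil3 promoter had been seen. Both Tef promoters hold 1 E-box, 127 and 138 bases before the start (chr15:81802423-81802722 and chr15:81811164-81811463, plus strand), and the Nfil3 promoter (chr13:52980990-52981289, minus strand) holds 1 ROR element on the opposite strand, 12 bases before the start. Capitals mark the E-box in Tef and the ROR element, read on the opposite strand, in Nfil3.
Tef promoter 1: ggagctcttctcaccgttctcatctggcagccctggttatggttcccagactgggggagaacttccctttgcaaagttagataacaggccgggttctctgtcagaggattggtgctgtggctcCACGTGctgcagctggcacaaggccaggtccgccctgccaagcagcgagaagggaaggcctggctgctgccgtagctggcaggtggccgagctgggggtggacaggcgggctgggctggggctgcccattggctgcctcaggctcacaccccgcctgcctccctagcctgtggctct
Tef promoter 2: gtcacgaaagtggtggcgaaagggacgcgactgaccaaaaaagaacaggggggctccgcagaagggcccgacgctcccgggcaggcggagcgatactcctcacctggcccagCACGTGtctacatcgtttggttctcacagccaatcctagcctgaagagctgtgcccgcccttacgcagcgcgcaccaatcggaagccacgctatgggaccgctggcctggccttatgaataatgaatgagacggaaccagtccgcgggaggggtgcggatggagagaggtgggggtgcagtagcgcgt
Nfil3 promoter: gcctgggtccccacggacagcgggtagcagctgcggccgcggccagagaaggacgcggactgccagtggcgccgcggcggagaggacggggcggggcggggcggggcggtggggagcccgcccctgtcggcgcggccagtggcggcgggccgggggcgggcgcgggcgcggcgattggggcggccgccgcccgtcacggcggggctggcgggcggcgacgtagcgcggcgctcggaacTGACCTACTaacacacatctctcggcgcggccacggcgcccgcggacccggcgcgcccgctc
None of the 3 motifs was found in the windows of Dbp (chr7:45704997-45705296, plus strand) or Hlf (chr11:90390868-90391167, minus strand), and no D-box was found in any of the 5 windows. These matches describe letters only, and binding was not measured.

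Several facts of the whole data set bear on every value below. Array medians lay between 43.9 and 53.8 intensity units. The mean r of an array with the replicates of its group was lowest, at 0.953, for WT ZT12 replicate 1 of the SIRT6 cohort. The next lowest was 0.969, for WT ZT16 replicate 3 of that cohort. The deposited levels do not mirror the KO labels: the Sirt6 probe set was higher in livers labelled SIRT6 KO, 7.89 ± 0.10, against 7.32 ± 0.18 in WT (SD, n = 18 each; log2 level; adjusted p 8.9e-09), and the Sirt1 probe set was at 8.74 ± 0.11 in livers labelled SIRT1 KO and 8.74 ± 0.18 in WT (adjusted p 0.96). The sources used here do not say which exons these probe sets cover, so neither value checks the labels, and KO below means so labelled. Hepatocyte markers were high in all sets, with Alb at 13.39 and 13.40 (log2) in SIRT6 KO and WT and at 13.40 and 13.45 in SIRT1 KO and WT. Cohort, strain and any separate processing cannot be told apart, so levels are compared within a cohort.

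Over the day Dbp swung most among the 4 genes, Tef followed it later and with a smaller swing, Hlf moved little, and Nfil3 ran opposite to Dbp. A level here is log2(intensity + 16), and fold changes are on that scale, which understates them for low values. Dbp averaged 10.71 ± 0.07 at ZT8 and 6.38 ± 0.19 at ZT0 in livers labelled SIRT6 KO, the highest and lowest of their 6 times (SD, n = 3). In SIRT6-cohort WT livers its highest mean was 10.65 ± 0.30 at ZT8 and its lowest 6.52 ± 0.32 at ZT20. The corresponding means were 10.71 ± 0.06 at ZT8 and 6.44 ± 0.40 at ZT0 in livers labelled SIRT1 KO, and 10.59 ± 0.11 at ZT8 and 5.75 ± 0.20 at ZT0 in their WT. The daily range of the Dbp means was thus 20.0-fold and 17.5-fold in SIRT6 KO and WT, and 19.3-fold and 28.5-fold in SIRT1 KO and WT.

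The single samples show how tight the top was. At ZT8 Dbp read 10.63, 10.71 and 10.77 in SIRT6 KO, against 10.73, 10.90 and 10.31 in WT, and 10.64, 10.74 and 10.73 in SIRT1 KO, against 10.46, 10.67 and 10.62 in WT. KO and WT overlapped at ZT8 in both cohorts, and in all 4 sets every ZT8 sample lay above every sample of the other times. On the flanks of the peak the samples of 1 group lay far apart. Dbp at ZT4 read 8.33, 9.52 and 8.68 in SIRT6 KO, against 7.64, 9.94 and 8.88 in WT, and 8.30, 9.45 and 8.96 in SIRT1 KO, against 9.47, 8.88 and 7.07 in WT. Pooled over the 4 sets, the SD between replicates of Dbp was 0.95 at ZT4 and 0.68 at ZT12, against 0.17 at ZT8. In the order of levels ZT12 was second to ZT8 in all 4 sets. ZT4 and ZT12 overlapped in SIRT6 KO and WT, and ZT4 and ZT16 overlapped in SIRT1 KO and WT. ZT20 and ZT0 overlapped in both KO sets, and ZT4, ZT0, ZT16 and ZT20 formed a chain of overlapping neighbours in SIRT6-cohort WT.

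Tef, the next activator, had its highest mean at ZT8 in all 4 sets too. Its means at ZT8 were 9.19 ± 0.19 in SIRT6 KO and 9.17 ± 0.27 in WT, and 9.77 ± 0.10 in SIRT1 KO and 9.59 ± 0.08 in WT (SD, n = 3). The range of its 6 means was 4.62-fold and 3.40-fold in SIRT6 KO and WT, and 4.90-fold and 5.15-fold in SIRT1 KO and WT. For Dbp ZT8 and ZT12 were apart in all 4 sets. For Tef they overlapped in every set but SIRT1 KO, where 9.88, 9.68 and 9.76 at ZT8 lay above 9.44, 9.56 and 9.47 at ZT12. ZT0 was lowest in 3 sets, and in SIRT6-cohort WT ZT20 was lowest, overlapping with ZT0.

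Hlf, the third activator, changed by 1.42-fold and 1.46-fold over the means of SIRT6 KO and WT, and by 1.24-fold and 1.58-fold over those of SIRT1 KO and WT. Its highest mean fell at ZT12 in 3 sets and at ZT16 in SIRT1 KO, with 9.18 ± 0.08 in SIRT6 KO and 9.17 ± 0.42 in WT, and 9.26 ± 0.15 in SIRT1 KO and 9.24 ± 0.06 in WT. All 5 pairs of neighbours in the order of its levels overlapped in SIRT6 KO and in WT, 4 of 5 in SIRT1 KO and 3 of 5 in WT. In SIRT6-cohort WT even the highest and lowest times overlapped.

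Nfil3, the repressor, was lowest at ZT8 in all 4 sets. At that time it read 7.49, 6.82 and 7.43 in SIRT6 KO, against 6.93, 7.18 and 7.17 in WT, and 7.52, 7.71 and 7.47 in SIRT1 KO, against 7.61, 7.51 and 7.60 in WT. KO and WT overlapped there in both cohorts, and ZT8 was separated from every other time in each set. The highest mean stood at ZT0 or ZT20, 9.28 ± 0.32 in SIRT6 KO and 9.37 ± 0.24 in WT, and 9.41 ± 0.21 in SIRT1 KO and 9.55 ± 0.14 in WT. ZT0 and ZT20 overlapped in all 4 sets, as did each further pair of neighbours in the order ZT16, ZT4 and ZT12. From top to bottom Nfil3 spanned 4.09-fold and 4.85-fold in SIRT6 KO and WT, and 3.59-fold and 3.94-fold in SIRT1 KO and WT.

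**Figure D1:**
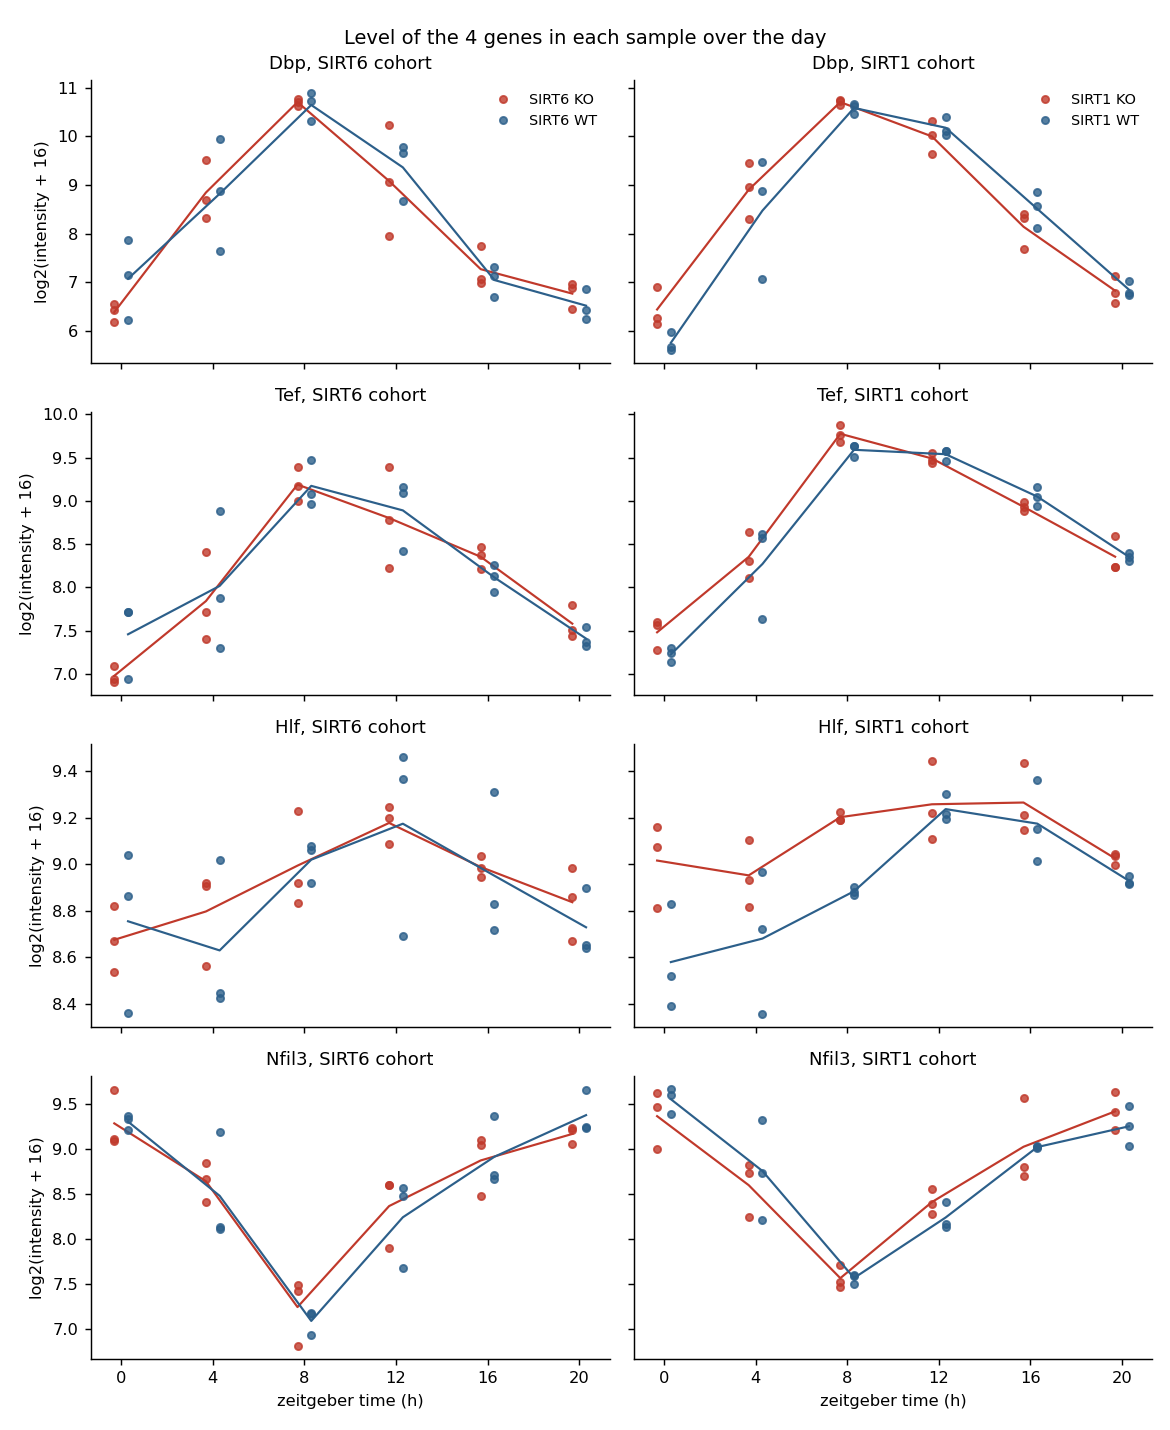
Level of Dbp, Tef, Hlf and Nfil3 in each of the 72 livers, log2(intensity + 16), against zeitgeber time in hours; points are samples (3 for each time and genotype), lines join the group means, KO is red and drawn left of WT in blue, and the vertical scale differs between genes. Dbp and Tef are highest and Nfil3 lowest at ZT8 in all 4 sets, and the points of Dbp at ZT4 lie far apart.

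A 24 h cosine was fitted to the 18 livers of each set, and its rhythm was tested by limma's moderated F with Benjamini-Hochberg adjustment over all genes tested. The test called 10.6% of all genes in SIRT6 KO and 10.1% in WT, and 23.2% in SIRT1 KO and 18.3% in WT. Dbp, Tef and Nfil3 were called in all 4 sets, and Hlf in every set but SIRT6-cohort WT. For Dbp the fitted peak minus trough was 4.11 ± 0.42 (SE) in SIRT6 KO and 4.12 ± 0.41 in WT, and 4.34 ± 0.25 in SIRT1 KO and 4.72 ± 0.35 in WT, all log2, with the highest adjusted p of the 4 sets at 5.4e-05. By amplitude Dbp stood 3rd of 13308 genes in SIRT6 KO and 2nd in WT, and 3rd in SIRT1 KO and 1st in WT. Tef had amplitudes of 2.02 ± 0.24 in SIRT6 KO and 1.85 ± 0.25 in WT, and 2.06 ± 0.18 in SIRT1 KO and 2.23 ± 0.20 in WT, with adjusted p of at most 0.00058. Nfil3 amplitudes were 1.71 ± 0.27 in SIRT6 KO and 2.05 ± 0.28 in WT, and 1.72 ± 0.19 in SIRT1 KO and 1.75 ± 0.20 in WT, with adjusted p of at most 0.0015.

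Hlf was the member for which the call differed between sets. Its amplitude was 0.45 ± 0.09 in SIRT6 KO (adjusted p 0.011) and 0.48 ± 0.18 in WT (adjusted p 0.17), so the set without a call had no smaller an amplitude but a larger error. In the other cohort it was 0.33 ± 0.09 in SIRT1 KO (adjusted p 0.020) and 0.67 ± 0.10 in WT (adjusted p 0.00047). The call in SIRT6 KO ended with an F test over the 6 times and with 24 h and 12 h cosines together (adjusted p 0.17 and 0.092). That in SIRT1 KO ended with the same fits (adjusted p 0.11 and 0.096) and without ZT0 replicate 1 or ZT12 replicate 1 of that set (highest adjusted p 0.056).

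The fitted peaks ran in 1 order in all 4 sets, Dbp, Tef, Hlf and then Nfil3. Dbp peaked at ZT8.61 ± 0.39 (SE, in hours) in SIRT6 KO and ZT8.28 ± 0.38 in WT, and at ZT9.46 ± 0.22 in SIRT1 KO and ZT10.21 ± 0.29 in WT. Tef came later by 2.18 h in SIRT6 KO and 1.63 h in WT, and by 1.63 h in SIRT1 KO and 1.34 h in WT. Hlf came later than Dbp by 3.56 h in SIRT6 KO and 3.86 h in WT, and by 3.44 h in SIRT1 KO and 3.65 h in WT, with a wide error on its own peak, up to 1.40 h in SIRT6-cohort WT. Nfil3 peaked at ZT20.89 ± 0.60 in SIRT6 KO and ZT20.68 ± 0.52 in WT, and at ZT20.68 ± 0.43 in SIRT1 KO and ZT21.34 ± 0.44 in WT. The gap between Dbp and Nfil3 was thus close to opposite phase, 12.3 h in SIRT6 KO and 12.4 h in WT, and 11.2 h in SIRT1 KO and 11.1 h in WT. These gaps are descriptions of the fitted peaks and were not tested.

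**Figure D2:**
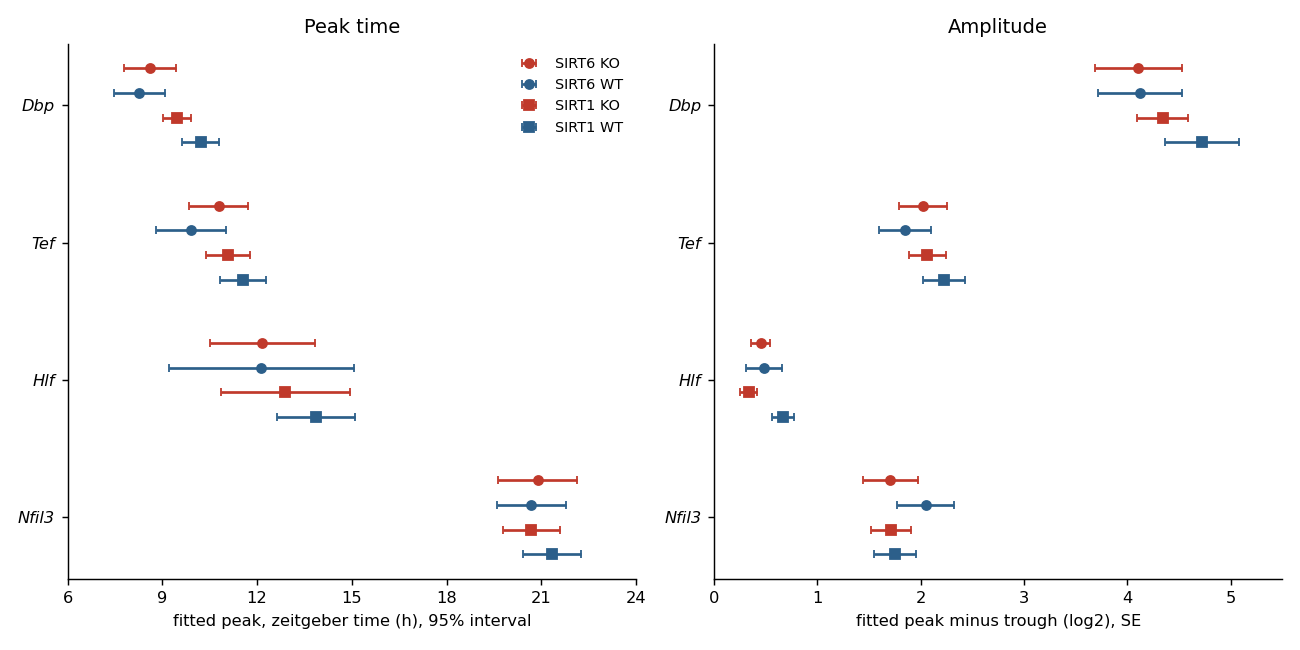
Left, fitted peak time in hours with its 95% interval; right, fitted peak minus trough in log2 units with its SE, for the 4 genes in SIRT6 KO, SIRT6-cohort WT, SIRT1 KO and SIRT1-cohort WT (18 livers each). Dbp, Tef and Hlf peak between ZT8.28 and ZT13.86 and Nfil3 between ZT20.68 and ZT21.34, and Dbp has the largest amplitude in each set.

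Whether the genotype shifted the level of these factors was asked first for the average over the day, KO minus WT of the same time. The test called 6.61% of all genes in the SIRT6 cohort and 2.27% in that of SIRT1. None of the 4 genes was called in livers labelled SIRT6 KO. None had an unadjusted p under 0.05, against 19.3% of all genes. The differences were -0.07 ± 0.20 (SE, log2) for Dbp, -0.05 ± 0.12 for Tef, 0.04 ± 0.08 for Hlf and 0.03 ± 0.11 for Nfil3, with adjusted p of at least 0.89. In the SIRT1 cohort Hlf was called and the other 3 were not, with 0.11 ± 0.14 for Dbp, 0.06 ± 0.06 for Tef and -0.0011 ± 0.085 for Nfil3 and adjusted p of at least 0.65.

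Hlf was higher in livers labelled SIRT1 KO, at 9.12 ± 0.17, against 8.91 ± 0.28 in WT (SD over the day, n = 18 each), a difference of 0.21 ± 0.05 (SE, log2) with adjusted p 0.028. Of the 18 KO samples 15 lay above the WT mean of their time. At ZT0 Hlf read 8.81, 9.16 and 9.07 in SIRT1 KO, against 8.83, 8.52 and 8.39 in WT. At ZT4 it read 8.82, 8.93 and 9.11 in SIRT1 KO, against 8.72, 8.96 and 8.36 in WT. Both times overlapped by 1 WT sample. At ZT8 the groups were apart, with 9.22, 9.19 and 9.19 in SIRT1 KO, against 8.87, 8.90 and 8.88 in WT. At ZT20 they were apart by a smaller distance, with 9.042, 9.034 and 8.998 in SIRT1 KO, against 8.916, 8.921 and 8.949 in WT. At ZT12 and ZT16 the groups overlapped. Hlf at ZT12 read 9.45, 9.22 and 9.11 in SIRT1 KO, against 9.19, 9.22 and 9.30 in WT, where 1 of 3 KO samples lay above the WT mean. At ZT16 it read 9.21, 9.15 and 9.43 in SIRT1 KO, against 9.01, 9.15 and 9.36 in WT. KO minus WT was 0.44, 0.27 and 0.32 at ZT0, ZT4 and ZT8 and 0.02, 0.09 and 0.10 at ZT12, ZT16 and ZT20 (SE 0.12 each). The first 3 were the larger, but no single time was called (adjusted p 0.34, 0.58 and 0.51 at those 3), nor was the interaction of genotype and time (adjusted p 0.80). In livers labelled SIRT6 KO Hlf differed from WT by -0.08, 0.17 and -0.03 at ZT0, ZT4 and ZT8 (SE 0.19 each), and the difference of the averaged effects, SIRT6 minus SIRT1, was -0.17 ± 0.09 and was not called (adjusted p 0.31).

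The Hlf call ended with 1 of the 36 arrays left out, WT ZT0 replicate 3 of the SIRT1 cohort (0.19, adjusted p 0.056), and in 1 fit of all 72 arrays (0.21, adjusted p 0.092), and the adjusted p ran from 0.0034 to 0.092 over 9 alternatives. In the same contrast 0 of 6 Kupffer cell markers were higher in SIRT1 KO and none was called, with summed intensities of 863 to 3149 in KO and 1315 to 3845 in WT. Their KO minus WT was -0.45 for Marco, -0.30 for Adgre1, -0.23 for Timd4, -0.20 for Cd5l, -0.14 for Vsig4 and -0.01 for Clec4f (log2, adjusted p of at least 0.20). Of 5 endothelial markers 0 were higher and none was called, with a median of -0.063 and summed intensities of 2716 to 4977 in KO and 3926 to 5705 in WT. Stellate cell markers went the other way, with 5 of 6 higher in SIRT1 KO and a median of 0.057. Of the lymphocyte markers 2 of 4 were higher, and of the bile duct markers 2 of 3. None of these was called, and the median over all genes was -0.0017. The part of any of these markers in the Hlf result was not tested. In bulk liver, fewer cells of a type and less RNA per cell cannot be told apart.

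At single times the test called 0.137% of all gene and time pairs in the SIRT6 cohort and 0% in that of SIRT1, where 6567 of 79848 pairs had an unadjusted p under 0.05. None of the 24 pairs of member and time was called by limma in either cohort. In the SIRT6 cohort 0 of 24 had an unadjusted p under 0.05, against 7.9% of all pairs. In the SIRT1 cohort 3 of 24, all Hlf, had one, against 8.22% of all pairs. KO and WT samples did not overlap in 0 of 24 pairs in the SIRT6 cohort, where 12.9% of all pairs did not, and in 4 of 24 in the SIRT1 cohort, where 13% did not. The 4 pairs were Dbp at ZT0, Tef at ZT8 and Hlf at ZT8 and ZT20, each higher in SIRT1 KO, a share near that of all genes. For Dbp at ZT0 the samples read 6.27, 6.15 and 6.89 in SIRT1 KO, against 5.97, 5.68 and 5.61 in WT, a difference of 0.69 ± 0.35 (SE, adjusted p 0.62). In the SIRT6 cohort the same time read 6.17, 6.42 and 6.55 in KO, against 7.14, 6.21 and 7.86 in WT, a difference of -0.69 ± 0.48 (adjusted p 0.82). The widest spread here was that of the WT livers of the SIRT6 cohort.

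**Figure D3:**
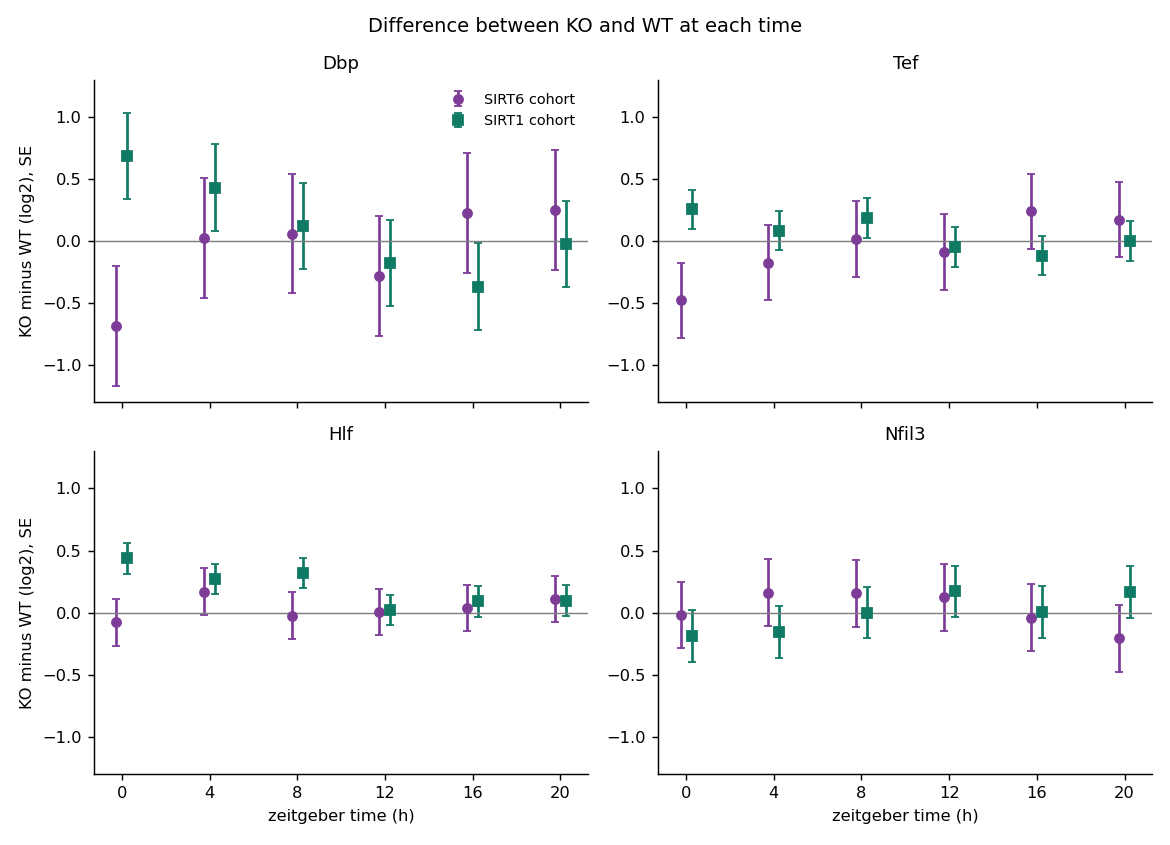
KO minus WT of the same time (log2) with its SE against zeitgeber time in hours, for each gene, in the SIRT6 cohort (circles) and the SIRT1 cohort (squares), 3 samples per genotype and time. Hlf lies at 0.44, 0.27 and 0.32 at ZT0, ZT4 and ZT8 in the SIRT1 cohort, and Dbp at ZT0 lies at -0.69 in the SIRT6 cohort and 0.69 in that of SIRT1.

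A difference in the rhythm itself was tested with interaction terms of genotype and cosine over the 36 livers of a cohort. This test called 0.00751% of all genes, 1 gene, in the SIRT6 cohort and 0% in that of SIRT1, where 965 of 13308 genes had an unadjusted p under 0.05. None of the 4 genes was called. Peak times of SIRT6 KO minus WT differed by 0.33 h for Dbp (95% interval -0.83 to 1.48), 0.88 h for Tef (-0.56 to 2.33) and 0.22 h for Nfil3 (-1.46 to 1.89). Those of SIRT1 KO minus WT differed by -0.75 h for Dbp (-1.54 to 0.04), -0.46 h for Tef (-1.49 to 0.58) and -0.66 h for Nfil3 (-1.99 to 0.66). All 6 intervals include 0. The amplitude of Hlf differed by -0.33 between SIRT1 KO and WT (KO minus WT, log2, 95% interval -0.61 to -0.06). The amplitude alone was given no p-value. In the limma test of amplitude and phase together Hlf was the 1 member with an unadjusted p under 0.05 (0.046, adjusted p 0.69). It failed the correction.

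The 2 cohorts were compared for the effect of the genotype and for the WT rhythm. The averaged effects of KO, SIRT6 minus SIRT1, differed by -0.18 ± 0.25 for Dbp, -0.11 ± 0.14 for Tef and 0.03 ± 0.14 for Nfil3, and none of the 4 genes was called, against 5.76% of all genes. At single times this difference was called for 0.134% of all pairs and for none of the 24 pairs of member and time. Of these, Dbp, Tef and Hlf at ZT0 had an unadjusted p under 0.05 by limma. The share of all pairs under that p was not computed, so these 3 cannot be set against it. For the averaged effects 19.6% of all genes, and none of the 4 members, had an unadjusted p under 0.05. Between the WT sets the peak of Dbp differed by -1.93 h, SIRT6 cohort minus SIRT1 cohort (95% interval -2.94 to -0.92), that of Tef by -1.64 h (-2.95 to -0.33) and that of Nfil3 by -0.67 h (-2.14 to 0.81). The test of the whole rhythm difference, amplitude and phase together, called 0.0827% of all genes and none of the 4 members (adjusted p 0.12 for Dbp, 0.26 for Tef, 0.59 for Hlf and 0.68 for Nfil3). Dbp and Tef had an unadjusted p under 0.05 (0.0014 and 0.03), as had 16.8% of all genes. Among the core clock genes Nr1d1 and Nr1d2, which encode the REV-ERB proteins, were called (adjusted p 0.047 each), with peaks that differed by -2.32 h (-3.19 to -1.44) and -2.64 h (-3.64 to -1.64). Both calls were close to the threshold. That of Nr1d1 ended in 3 of 7 alternatives and with 22 of 36 arrays left out 1 at a time, and that of Nr1d2 in 4 of 7 and with 25 of 36 (adjusted p up to 0.10 and 0.11). Strain and cohort cannot be told apart in this comparison.

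Within groups, the correlation of Dbp and Tef was called in both cohorts. That of Hlf with Dbp and with Tef was called in the SIRT6 cohort and not in that of SIRT1. The difference between the cohorts was not tested. The share of all gene pairs correlated within groups was not computed, so shifts of a whole array were not set apart. The array least like its replicates, WT ZT12 replicate 1 of the SIRT6 cohort, was below its group mean for every member. Its deviations were -0.7 for Dbp, -0.47 for Tef, -0.48 for Hlf and -0.56 for Nfil3 (log2). In the SIRT6 cohort Dbp and Tef lay on the same side of their group means in 24 of 36 livers. The count was 20 for Dbp and Hlf and 28 for Tef and Hlf. In the SIRT1 cohort the counts were 22, 22 and 20 in the same order of pairs. Deviations from the 12 group means of a cohort were correlated over its 36 livers and permuted within groups, two-sided, with adjustment over the 12 pairs of member and cohort. Dbp and Tef had r = 0.90 and rho = 0.79 in the SIRT6 cohort (permutation p 4e-05 for each, adjusted p 0.00048) and r = 0.82 and rho = 0.61 in the SIRT1 cohort (permutation p 0.0025 and 0.0032, adjusted p 0.0076 and 0.013). Their r was 0.86 in the SIRT6 cohort and 0.62 in that of SIRT1 without the 2 livers farthest from the median. Hlf followed in the SIRT6 cohort, with r = 0.61 and rho = 0.56 to Dbp (permutation p 0.0016 and 0.006, adjusted p 0.0064 and 0.018) and r = 0.71 and rho = 0.69 to Tef (permutation p 0.00017 and 0.00036, adjusted p 0.001 and 0.0022). Without the 2 farthest livers these r were 0.63 and 0.66. In the SIRT1 cohort Hlf had r = 0.50 to Dbp (permutation adjusted p 0.21) and r = 0.39 to Tef (adjusted p 0.40). Nfil3 had r = -0.30 to Dbp in the SIRT6 cohort (permutation adjusted p 0.39) and r = -0.62 in the SIRT1 cohort (permutation p 0.035, adjusted p 0.085), the second of which was -0.35 without the 2 farthest livers.

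Some of these correlations were smaller without the times at which Dbp varied most between replicates. Without ZT4 and ZT12, an alternative chosen after the data were seen, Dbp and Tef had r = 0.67 in the SIRT6 cohort (permutation adjusted p 0.15) and r = 0.33 in the SIRT1 cohort (adjusted p 0.51). In the SIRT6 cohort Tef and Hlf had r = 0.66 and Dbp and Hlf r = 0.50 without those times (permutation adjusted p 0.15 and 0.51), against 0.71 and 0.61 with them. No pair was called on these fewer livers. One WT liver of ZT4 in each cohort was the lowest of its group in Dbp and Tef and the highest in Nfil3. In the SIRT6 cohort it was replicate 1, with Dbp at 7.64 against 9.94 and 8.88 in the other WT livers of that time, Tef at 7.30 against 8.88 and 7.87, and Nfil3 at 9.18 against 8.13 and 8.12. In the SIRT1 cohort it was replicate 3, with Dbp at 7.07 against 9.47 and 8.88 in the other WT livers of that time, Tef at 7.63 against 8.62 and 8.57, and Nfil3 at 9.32 against 8.21 and 8.73. The pattern was not limited to WT, as replicate 1 of SIRT6 KO at ZT4 held it too. There Dbp read 8.33 against 9.52 and 8.68, Tef 7.40 against 8.41 and 7.72, and Nfil3 8.84 against 8.41 and 8.67. Replicate 1 of SIRT1 KO at ZT4 was lowest in Dbp and Tef but not highest in Nfil3, at 8.73 against 8.24 and 8.82. The pooled SD of each of the 4 genes was larger at ZT4 than at any other time.

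**Figure D4:**
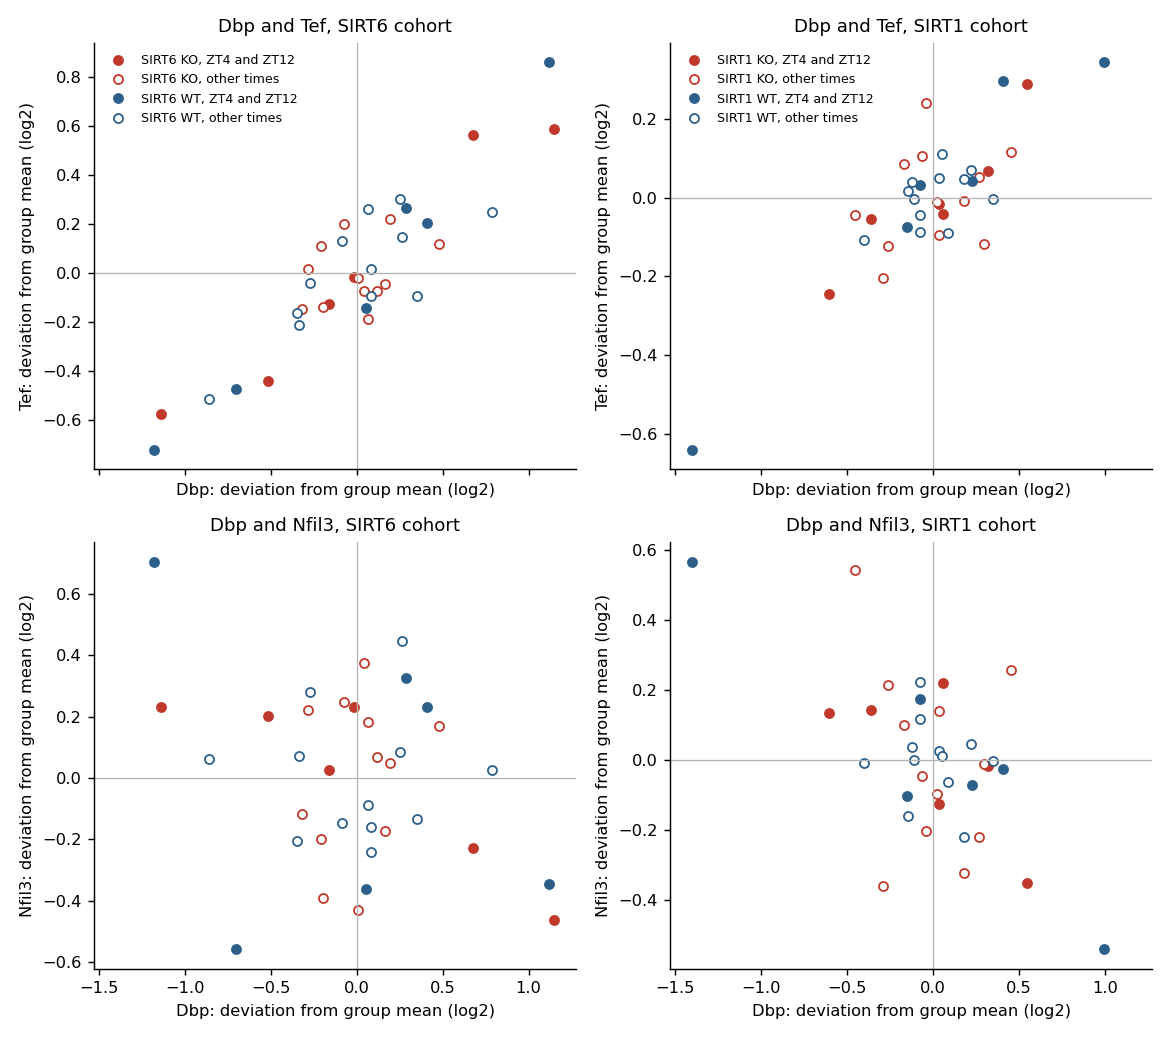
Deviation of each liver from the mean of its own group (log2), Dbp on the horizontal axis against Tef (top) and Nfil3 (bottom), in the SIRT6 cohort (left) and the SIRT1 cohort (right), 36 livers each; filled points are ZT4 and ZT12, KO is red and WT blue. The filled points reach farthest from 0, with r = 0.90 and 0.82 for Tef and -0.30 and -0.62 for Nfil3 over all points.

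The second Tef probe set was dimmer than the first and changed less. Its mean over the 72 arrays was 5.68, with a range of 5.04 to 6.26, below the level of 6.00 under which genes were left out, while the first had a mean of 8.43 and a range of 6.91 to 9.88. Fitted among all probe sets with no filter, the lower one had an amplitude of 0.21 ± 0.09 in SIRT6 KO and 0.18 ± 0.13 in WT (adjusted p 0.42 and 0.66), and of 0.62 ± 0.13 in SIRT1 KO and 0.38 ± 0.12 in WT (adjusted p 0.008 and 0.11). KO minus WT averaged 0.04 ± 0.06 in the SIRT6 cohort and -0.19 ± 0.06 in that of SIRT1 (adjusted p 0.85 and 0.13), against -0.05 ± 0.12 and 0.06 ± 0.06 for the higher one. The signs are opposite in both cohorts, and neither probe set was called for genotype. The sources used here do not say which transcripts each covers.

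**Figure D5:**
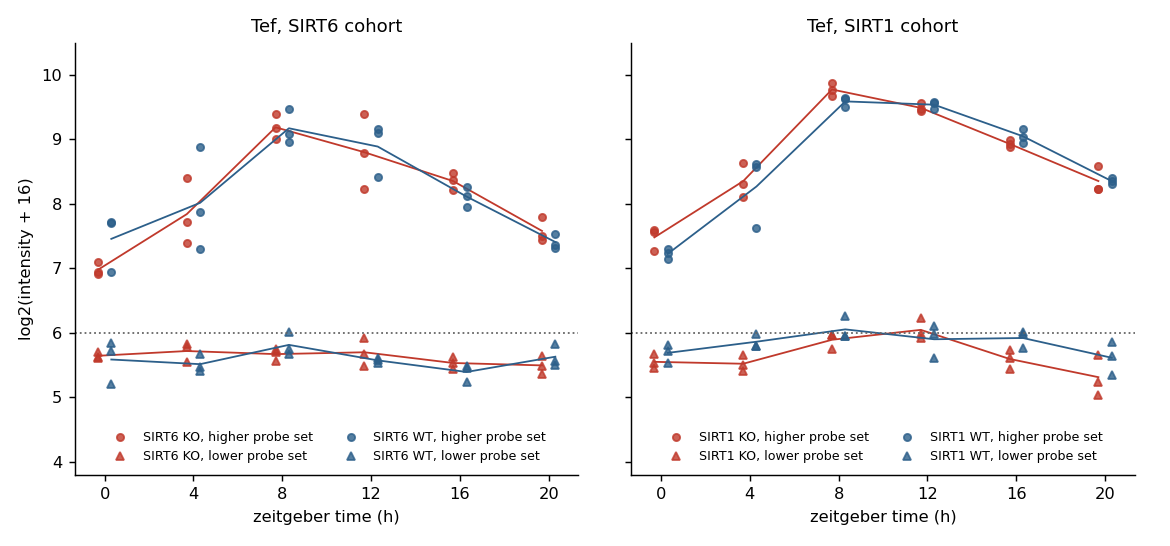
The 2 Tef probe sets in each liver, log2(intensity + 16) against zeitgeber time in hours, circles for the higher and triangles for the lower one, KO red and left of WT in blue, lines through group means; the dotted line at 6.00 is the level below which genes were left out. The higher probe set ranges from 6.91 to 9.88 and the lower from 5.04 to 6.26.

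The genes most like each member were found by Pearson's r over the 24 group means, centred within cohort, a description over means that share their arrays. Dbp was most like Nr1d2 (0.959), which encodes REV-ERB beta, then Anxa7 (0.949), Pnpla2 (0.947), the adipose triglyceride lipase, and Tut4 (0.946). Tef was most like Per3 (0.989), a period gene of the clock, then Foxo3 (0.951), Tnks1bp1 (0.947) and Ndel1 (0.942). For Hlf the closest were Nhlrc2 (0.914), Slc37a4 (0.912), the glucose-6-phosphate transporter, Tor1a (0.902) and Rhbdd2 (0.898). Nfil3 was most like Arntl (0.954), which encodes BMAL1, Chka (0.954), a choline kinase, Slc45a3 (0.952) and Lgalsl (0.941). The most opposed to Nfil3 were Tut4 (-0.96), Wipf3 (-0.936), P2rx4 (-0.932) and Rnf19b (-0.927), while Dbp itself stood at -0.948. Among the members Dbp and Tef had r = 0.898, Tef and Hlf 0.735 and Dbp and Hlf 0.508 over the 24 means. The fitted peak of Arntl came 0.32 h after that of Nfil3 in SIRT6 KO and 0.56 h in WT, and 0.83 h in SIRT1 KO and 0.67 h in WT, and that of Nr1d1, which encodes REV-ERB alpha, came before that of Dbp, a gap of -2.37 h in SIRT6 KO and -3.63 h in WT, and of -3.13 h in SIRT1 KO and -3.25 h in WT.

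Other genes of the pathway came from lists chosen from textbook knowledge with earlier results of these data known. Of 13 measured core clock genes, 12 were called rhythmic in SIRT6 KO and 11 in WT, and 12 in SIRT1 KO and 12 in WT, with median amplitudes of 2.31 and 2.08, and 2.57 and 2.60, against 0.20, 0.23, 0.22 and 0.21 over all genes in the same order. None of the 13 was called for genotype averaged over the day, with medians of -0.055 in the SIRT6 cohort and 0.011 in that of SIRT1. Nr1d1 had the largest averaged difference among them, -0.58 ± 0.18 in the SIRT6 cohort (adjusted p 0.057). At single times Nr1d1 at ZT0 in the SIRT6 cohort was the 1 called difference among the 13. It read 6.22, 7.89 and 7.24 in SIRT6 KO, against 10.23, 8.74 and 10.53 in WT, without overlap, and was lower in KO by limma (-2.72 ± 0.45, adjusted p 0.0062). The call ended without WT ZT0 replicate 3 (-2.37, adjusted p 0.053) or KO ZT0 replicate 1 (-2.27, adjusted p 0.051) of that cohort. Nr1d2 at the same time stood at -1.26 ± 0.29 and was not called (adjusted p 0.081). In the SIRT1 cohort KO minus WT at ZT0 was 0.23 ± 0.24 for Nr1d1 and 0.35 ± 0.15 for Nr1d2 (adjusted p 0.85 and 0.57), and the difference of the effects at that time, SIRT6 minus SIRT1, was called for both by limma (-2.94 ± 0.53, adjusted p 0.0046, and -1.61 ± 0.33, adjusted p 0.023). Of 11 measured genes tied to PAR bZIP factors or Nfil3 in mouse liver, 4 were called rhythmic in SIRT6 KO and 2 in WT, and 5 in SIRT1 KO and 7 in WT. Alas1, the first enzyme of haem synthesis, was rhythmic in all 4 sets, with amplitudes of 2.35 in SIRT6 KO and 2.17 in WT, and 2.59 in SIRT1 KO and 1.61 in WT, and peaks between ZT12.4 and ZT14.4. Cyp2a5, a coumarin hydroxylase, was rhythmic in all 4 too, with amplitudes of 0.96 to 1.60. Averaged over the day, 1 of the 11 was called in the SIRT6 cohort, where Cyp2a4, a steroid hydroxylase close in sequence to Cyp2a5, was higher in KO (0.88 ± 0.18, adjusted p 0.0027). In the SIRT1 cohort 2 of 11 were called, with Cyp2b10, a target of the nuclear receptor CAR, lower in KO (-1.44 ± 0.27, adjusted p 0.006) and Cyp4a14, a fatty acid hydroxylase, lower in KO (-1.84 ± 0.47, adjusted p 0.036). The call of Cyp4a14 ended in 1 fit of 72 arrays and with 14 of 36 arrays left out 1 at a time (adjusted p up to 0.069 and 0.067). The same 2 stood at 0.89 ± 0.31 and 1.58 ± 0.57 in the SIRT6 cohort and were not called (adjusted p 0.085 and 0.10). The difference of the averaged effects, SIRT6 minus SIRT1, was called by limma for 5.76% of all genes. Among them were Cyp2b10 (2.33 ± 0.42, adjusted p 2e-04), Cyp4a14 (3.42 ± 0.77, adjusted p 0.0038) and Cyp2a4 (1.00 ± 0.26, adjusted p 0.013). The median of the list was 0.13 in the SIRT6 cohort and -0.085 in that of SIRT1, against 0.0035 and -0.0017 over all genes.

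The C/EBP family, bZIP factors that bind related sites, had 5 genes tested and none called for genotype in either cohort. Cebpb was rhythmic in all 4 sets, with peaks from ZT11.3 to ZT12.8 and amplitudes of 0.83 to 0.92. Of 5 hepatocyte markers none was called in the SIRT6 cohort and 1 in that of SIRT1, where Serpina1a, an alpha-1-antitrypsin gene, was lower in KO (-0.12 ± 0.03, adjusted p 0.045). That call ended with 27 of 36 arrays left out 1 at a time and in 2 of 9 alternatives (adjusted p up to 0.079 and 0.20). None of the 6 Kupffer cell, 4 lymphocyte, 6 stellate cell, 5 endothelial and 3 bile duct markers tested was called for genotype in either cohort. In the SIRT6 cohort all 6 Kupffer cell markers had a positive KO minus WT, with a median of 0.19 and summed intensities of 1578 to 10080 in KO and 1287 to 8227 in WT, and in the SIRT1 cohort the median was -0.22.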

How the data were processed

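Liver RNA of 72 samples was measured on single-colour Affymetrix arrays. The deposited values are linear intensity, 1 value per probe set and array, judged from their range. The submitters' processing notes name Affymetrix Expression Console 1.1.1 and PLIER 2.0 as what the authors used; the sources used here give neither normalization settings nor a genome build. From the deposited intensity, log2(intensity + 16) was taken. Each column was matched to 1 sample by name, groups and times came from the titles, and no 2 arrays held identical values. Of 41345 probe sets 23521 carried 1 symbol, 1814 several and 16010 none, and only the first were named. Entrez identifiers matched the reference for 23328, and 0 symbols differed. The highest-mean probe set stood for each gene, and the lowest 40% of genes by mean (under 6.00) were left out.

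limma 3.58.1 in R 4.3.3, moderated with a trend, was fitted over the whole table, with 12 group means per cohort, cosine terms per set or cohort, and 24 group means for the difference of the cohorts. Adjustment was by Benjamini-Hochberg over all genes tested, or over genes and times together, at 0.05. An amplitude is the fitted peak minus trough. Correlations were permuted 100000 times in Python 3.11.15 with numpy 2.4.6. The averaged KO minus WT, the 24 h rhythm, the difference in rhythm and the permuted correlation were tested on simulated data. Precision is limited by how many arrays there are.

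The members and lists were chosen with earlier results of these data known. The named genes are the members, the 4 genes most like each by r (and most opposed for Nfil3; predicted genes left out), the core clock, the genes tied to PAR bZIP factors or Nfil3, the C/EBP family and markers of liver cell types (hepatocyte, Kupffer cell, lymphocyte, stellate cell, endothelium, bile duct). From the lists, the text names those past the threshold in a comparison of genotypes or cohorts. Those rhythmic in all 4 sets are named outside the core clock list, whose rhythmic genes are only counted. The largest clock difference, Nr1d2 beside Nr1d1 and the Kupffer cell markers are also named, these 3 picked after their values were seen. Per2, Por, Cyp4a10, Cebpz and some other list members were not analysed here.

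Same-numbered KO and WT samples of a time did not deviate together throughout (36 pairs, r from -0.36 to 0.74, median 0.10, 17 above 0.1), so the numbers were not taken as pairs. Alternatives were quantile normalization, pseudocounts of 1 and 64, no filter and one of 60%, all probe sets, a replicate block, array weights, 1 fit of 72 arrays, other rhythm fits and each array left out.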

Additional observations from a re-analysis of the deposited data

Results flagged for a closer look

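Dbp and Tef had differences of opposite sign in the 2 cohorts at single times. Every KO sample of 1 cohort lay above, and every KO sample of the other below, the mean of its WT. The 24 pairs of member and time were searched for this pattern, and the 3 that held it are given here. The share of all gene and time pairs that hold it was not computed. Dbp at ZT0 had a KO minus WT of -0.69 (log2) in the SIRT6 cohort and 0.69 in that of SIRT1. The difference, SIRT6 minus SIRT1, was -1.37 ± 0.62 (SE, n = 3 per group; limma unadjusted p 0.03, adjusted p 0.45). For Tef at ZT0 the values were -0.48 in the SIRT6 cohort and 0.26 in that of SIRT1, with a difference of -0.74 ± 0.35 (limma unadjusted p 0.04, adjusted p 0.49). Tef at ZT16 went the other way, with 0.24 in the SIRT6 cohort and -0.12 in that of SIRT1 and a difference of 0.36 ± 0.35 (limma adjusted p 0.82). None of these 3 differences passed the threshold after adjustment over all genes and times. Among the core clock genes the difference was called at ZT0 for Nr1d1, with -2.72 in the SIRT6 cohort and 0.23 in that of SIRT1 (limma adjusted p 0.0046), and for Nr1d2, with -1.26 and 0.35 in the same order (limma adjusted p 0.023). The test of this difference was added after the data were examined. Both calls share the 3 WT ZT0 arrays of the SIRT6 cohort with the WT rhythm calls of these genes. The call of Nr1d1 at ZT0 in that cohort uses them too. Nr1d1 read 10.23, 8.74 and 10.53 in those arrays. Its ZT0 call in that cohort ended with 2 of 36 arrays left out 1 at a time (limma adjusted p up to 0.053).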

How the results depend on the processing

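Over 69 results and 561 comparisons with alternatives that kept all arrays or left out named times, 536 kept their direction and their side of the threshold. The replicate block ended the calls of Nr1d1 and Nr1d2 for the rhythm of the WT sets (adjusted p 0.061 each) and changed none of the 55 other results it was run on, with Hlf averaged in the SIRT1 cohort at 0.21 (adjusted p 0.036). Hlf in that cohort lost its call in 1 fit of 72 arrays (0.21, adjusted p 0.092) and ranged from 0.18 to 0.23 with 1 array left out at a time. Array weights gave 1 called pair of member and time in the SIRT1 cohort, Hlf at ZT0 (0.52, adjusted p 0.026), and turned Nfil3 averaged there to 0.048. Hlf rhythm lost its call in SIRT6 KO with the F test (0.50) and 2 cosines (0.46), and in SIRT1 KO with both (0.31 and 0.34), where leaving out arrays gave 0.29 to 0.39. Without ZT4 and ZT12, chosen after the data were seen, calls ended for Dbp and Tef (r = 0.67 in the SIRT6 cohort and 0.33 in that of SIRT1), Dbp and Hlf (0.50) and Tef and Hlf (0.66), with fewer samples, and signs turned for Dbp and Nfil3 (0.10) and Tef and Nfil3 (0.14) in the SIRT6 cohort and Tef and Hlf (-0.11) in that of SIRT1. Hlf and Nfil3 in the SIRT6 cohort, at 0.20, turned to -0.01 without WT ZT12 replicate 1, the array least like its replicates. Averages near 0 changed sign as arrays were left out: in the SIRT6 cohort Dbp ranged from -0.17 to 0.026, Tef from -0.11 to 0.019, Hlf from -0.0050 to 0.067 and Nfil3 from -0.018 to 0.087, in the SIRT1 cohort Dbp from -0.0057 to 0.19 and Nfil3 from -0.046 to 0.046, and the difference of the effects on Nfil3 from -0.018 to 0.088. Where a cause is not given, the cause was not tested. Linear intensity without detection calls does not show how far the lower Tef probe set lies above background.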
